A study of Mus musculus with 22 samples.

Results

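The nuclear genes for subunits of respiratory complex III, complex IV and ATP synthase were described in mouse arterial smooth muscle cells, isolated by FACS out of 7 tissues. A gene was a member when its symbol in the deposited table began with Uqcr, with Cox followed by a digit from 4 to 8, or with Atp5, and its biotype was protein coding. This gave 42 of 28099 genes, of which 8 belong to complex III, 17 to complex IV and 17 to ATP synthase. Of these, 36 are common subunits, 5 are tissue-type isoforms (Cox4i2, Cox6a2, Cox6b2, Cox7a1 and Cox8b) and 1, Cox5b-ps, carries a pseudogene symbol in spite of its biotype. A further 9 genes had such a symbol but another biotype and were left out. In all, 41 members passed the filter on low values (3 or more libraries with a signal of 10 or higher), and Cox5b-ps did not.

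The 22 libraries comprised 4 of intestine and 3 of each other tissue, namely bladder, kidney, lung, stomach, heart and aorta. All mice carried Cspg4-Dre, Acta2-CreERT and R26-GFP, apart from the heart donors, whose first allele was Cspg4-DreERT, so that the heart and its genotype cannot be told apart. Dre and Cre are recombinases, driven here by the Cspg4 gene, which is active in pericytes and vascular smooth muscle, and by the Acta2 gene of smooth muscle actin. Tamoxifen, which activates the ERT-fused enzymes, was given to all mice for 3 days (0.75 mg for every 10 g of body weight). The labels give neither age nor sex. Libraries were made with SMART-Seq v4, which amplifies whole transcripts, out of at most 10 ng of RNA. Nothing says that the libraries of a tissue came from different animals, so the p-values reflect variation among libraries only, and this may be technical.

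Complex III passes electrons from ubiquinol to cytochrome c, and complex IV, cytochrome c oxidase, passes them on to oxygen. Both pump protons across the inner mitochondrial membrane, and ATP synthase uses the returning protons to make ATP. A few catalytic subunits are encoded in mitochondrial DNA and the rest, including every member here, in the nucleus. Several small complex IV subunits exist in a common form and in a form known from heart and skeletal muscle, or, for Cox4i2, from lung and vascular cells, where it takes part in oxygen sensing.

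The promoters of 2 common genes and of their striated muscle counterparts are shown because the pairs differed in CG pairs, which the choice of members did not use. Each sequence is the 250 bases before the RefSeq start (build GRCm38.p6), with CG in capitals.
Cox7a2: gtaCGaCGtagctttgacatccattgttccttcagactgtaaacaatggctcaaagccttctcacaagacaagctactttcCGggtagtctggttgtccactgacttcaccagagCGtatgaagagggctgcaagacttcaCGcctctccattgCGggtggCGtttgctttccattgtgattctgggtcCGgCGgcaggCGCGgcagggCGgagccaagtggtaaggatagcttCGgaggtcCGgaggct
Cox7a1: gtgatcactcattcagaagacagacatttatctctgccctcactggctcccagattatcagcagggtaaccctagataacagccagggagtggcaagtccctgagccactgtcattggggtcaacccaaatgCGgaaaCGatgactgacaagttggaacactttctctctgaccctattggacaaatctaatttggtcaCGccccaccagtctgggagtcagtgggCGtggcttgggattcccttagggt
Cox8a: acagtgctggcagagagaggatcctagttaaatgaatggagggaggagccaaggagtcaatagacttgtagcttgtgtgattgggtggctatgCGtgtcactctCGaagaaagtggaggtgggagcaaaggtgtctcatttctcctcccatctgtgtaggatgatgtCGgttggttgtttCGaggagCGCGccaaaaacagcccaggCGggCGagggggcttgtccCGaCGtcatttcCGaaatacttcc
Cox8b: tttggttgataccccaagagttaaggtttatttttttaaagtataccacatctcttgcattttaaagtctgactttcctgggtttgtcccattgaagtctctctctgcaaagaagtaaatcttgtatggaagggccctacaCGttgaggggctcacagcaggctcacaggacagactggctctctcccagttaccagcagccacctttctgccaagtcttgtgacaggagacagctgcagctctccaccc
They lie at chr9:79759854-79760103 (minus strand), chr7:30183921-30184170 (plus), chr19:7217617-7217866 (minus) and chr7:140900447-140900696 (minus). Cox7a2 held 14 CG pairs and Cox7a1 held 4, while Cox8a held 11 and Cox8b held 1. Over the 29 common genes with an entry (32 start sites) the number ran from 5 to 35 with a median of 14. The third isoform gene with an entry, Cox6b2, had 8, and the median over all 32851 promoters in the table was 6. Motifs were sought on both strands, where CCGGAAG (an ETS motif) occurred in 8 of 32 common start sites, or 25%, against 6.91% of all promoters. GCGCATG (a part of the NRF1 motif) occurred in 5, or 15.6%, against 3.24%. AAGGTCA (ERR) occurred in 2, against 4.08% of all promoters, and ATGGCGG (YY1) in 1, against 2.21%. The MEF2 motif occurred in none of them and in 0.508% of all promoters. None of the 5 motifs occurred in the 3 isoform promoters. GCGCATG matches on opposite strands overlapped each other, and matches of different motifs did not overlap. A match is a description of the letters and not a binding site.

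The deposited signal is a whole number scaled per library, and the worth of 1 read could be recovered from its steps. It ran from 0.422 in intestine 3 to 9.42 in aorta 1, which gave depths of 629456 to 12708396 reads. The worth of 1 read is less sure for bladder 2, where it came close to 1 (0.988). The aorta libraries and heart 3 (817157 reads) were the shallow libraries, with at most 1927765 reads, and the other 18 held at least 4389363. All 7 smooth muscle markers (such as Acta2 and Myh11) were above 0 in every library, with a summed signal of 7735 (bladder 3) to 77488 (the shallow heart 3). Markers of the organs' other cells were also present. The nephron list summed to 5689 to 16207 in kidney and at most 144 elsewhere, and the gastric epithelium list to 10146 to 13309 in stomach and at most 1448 elsewhere.

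Most of the differences that were also called among libraries of like depth were in isoform genes, and Cox4i2 had the lowest adjusted p there. Cox4i2 (chr2:152596093-152606957, mm39, plus strand) encodes the oxygen-responsive form of subunit 4. Its signal was 1097, 911 and 1780 in the heart libraries, 624, 462 and 330 in lung, and 449, 537 and 449 in kidney. It was 169, 177, 156 and 230 in intestine, 168, 198 and 51 in bladder, 81, 66 and 122 in stomach, and 94, 397 and 26 in aorta. All 3 heart libraries lay above every library of the other tissues, and all 3 stomach libraries lay below every lung, kidney, heart and intestine library. Each tissue was compared with the unweighted mean of the other 6 with limma on log2(signal + 1), and adjusted p-values (Benjamini-Hochberg over 16917 genes) under 0.05 were called. On this scale the change of a low gene is understated. Cox4i2 was 2.7 ± 0.51 log2 (SE) higher in heart (adjusted p = 0.00129, limma), while 6.03% of all genes were called higher there. It was lower in stomach by a log2 fold change of -1.72 ± 0.51 (SE, adjusted p = 0.0215, limma), where 6.93% of all genes were called lower. In stomach the call was lost without stomach replicate 1 (adjusted p = 0.0976) or 2 (adjusted p = 0.137, limma). In aorta it was called lower (log2 fold change -1.49 ± 0.51 SE, adjusted p = 0.0211, limma), beside 42.8% of all genes called lower. That call was lost without aorta replicate 1 (-1.45, adjusted p = 0.0669) or replicate 3 (-0.54, adjusted p = 0.334, limma), and edgeR on the rebuilt reads gave -0.60 (adjusted p = 0.368).

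Of the 21 tissue pairs, 8 passed for Cox4i2. Heart stood above bladder (3.33 ± 0.67 log2), intestine (2.74 ± 0.63), stomach (3.79 ± 0.67) and aorta, where the aorta minus heart difference was -3.59 ± 0.67 (SE). Lung exceeded stomach by 2.38 ± 0.67 and kidney exceeded stomach by 2.44 ± 0.67. Aorta also lay below lung (-2.18) and kidney (-2.25). Of all 16917 genes, 861, 1739 and 1452 were called higher in heart than in bladder, intestine and stomach. In lung and kidney 1332 and 854 were called higher than in stomach. In aorta 2527, 3020 and 5345 were called lower than in heart, lung and kidney. Heart did not pass against lung or kidney, so neighbours in the order heart, kidney, lung, intestine, aorta, bladder, stomach of mean signal were not separated. As a share of Cox4i2 and Cox4i1 signal together, Cox4i2 made up 45.6% ± 11.1 (SD, n = 3) in heart, 39.4% ± 8.91 (n = 3) in kidney, 34.7% ± 5.88 (n = 3) in lung and 25.3% ± 1.21 (n = 4) in intestine. It made up 13.1% ± 7.75 (n = 3) in bladder, 12.4% ± 5.22 (n = 3) in stomach and 5.32% ± 5.78 (n = 3) in aorta. Within heart the share was 52.2% and 51.7% in heart 1 and 2 and 32.8% in the shallow heart 3, and all aorta libraries were shallow, and the part of depth in these shares was not tested. The log2 ratio of Cox4i2 to Cox4i1 in lung, the tissue Cox4i2 is best known for, was -0.92 ± 0.38 (SD, n = 3), against -2.15 ± 1.75 (SD, n = 19) in the other libraries. This difference of 1.23 did not pass a two-sided exact permutation test over libraries (p = 0.244, adjusted p = 0.326 over 4 such ratios). The smallest p this design allows is 0.000649.

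**Figure D1:**
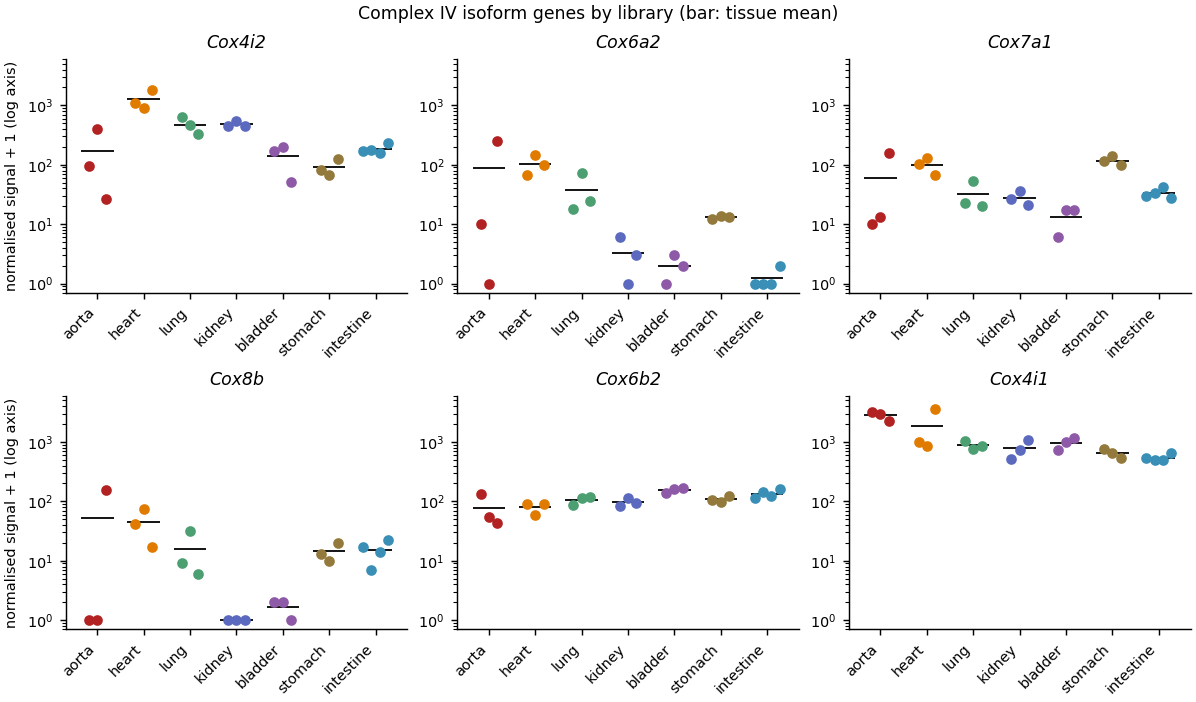
Deposited signal plus 1 (log axis) of 5 isoform genes and of Cox4i1 in each library, by tissue, with a bar at the tissue mean plus 1. Cox4i2 is highest in the heart libraries (911 to 1780), and in aorta 3 alone of its group Cox6a2, Cox7a1 and Cox8b reach 251, 159 and 152.

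Genes linked to Cox4i2 by oxygen sensing or expression in pericytes were taken as a list of 8, of which 2, Higd1b and Ndufa4l2, were called higher in heart and 0 lower, beside 6.03% and 12.4% of all genes. In aorta 4 were called lower and 1 higher, beside 42.8% and 9.15%, and in intestine 3 lower and 1 higher, beside 9.97% and 15.5%. Higd1b, which is also on the pericyte list, read 950, 849 and 1925 in heart and between 0 and 258 in the other 19 libraries. Ndufa4l2, a hypoxia-inducible relative of the complex IV subunit Ndufa4, read 1462, 1271 and 4627 in heart and 381, 312 and 393 in stomach. The median log2 fold change of the list in heart was 0.63, against -0.19 over all genes. The 7 pericyte markers were all above 0 in heart, with sums of 13329, 15866 and 42890. Sums were 9373 to 23944 in kidney, 4398 to 4798 in lung, 6098 to 6965 in stomach, 10994 to 13016 in intestine, 2120 to 13898 in bladder and 3306 to 9584 in aorta. Among them, Rgs5 read 465, 507 and 591 in lung and 6788, 6120 and 32601 in heart, while Kcnj8 read 1286, 1472 and 1185 in lung and 1242, 1494 and 623 in heart. In bulk samples, a larger share of cells with a gene and more RNA per cell cannot be told apart, and the part of pericytes in these levels was not tested. The sums of the 6 endothelial markers (such as Pecam1 and Cdh5) also differed by tissue. They were 4320 to 5923 in heart, 3725 to 6958 in kidney, 1389 to 2290 in lung and 575 to 671 in aorta. In stomach they were 2222 to 2767, with 1470 to 2856 in intestine and 983 to 2018 in bladder. Of the 6, 5 were called higher in heart, 3 higher in kidney and 6 lower in aorta (limma), beside 6.03%, 6.35% and 42.8% of all genes. Their part in the Cox4i2 levels was not tested.

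Cox6a2, the striated muscle form of subunit 6A (chr7:127804607-127805559, mm39, minus strand), read 66, 147 and 97 in heart and 17, 71 and 24 in lung. It read 11, 13 and 12 in stomach, 5, 0 and 2 in kidney, 0, 2 and 1 in bladder, and 0, 0, 0 and 1 in intestine. In aorta it read 9, 0 and 251. Apart from aorta 3 and lung 2, all libraries of other tissues lay below the heart libraries. Cox6a2 was called higher in heart (4.14 ± 0.97 log2, SE, adjusted p = 0.00608, limma) and lower in intestine (-3.31 ± 0.86, adjusted p = 0.00786, limma), where 9.97% of all genes were called lower. At matched depth, described with the common subunits, the intestine value was -2.20 (adjusted p = 0.433, limma). It passed in 6 of 21 pairs, among them heart over kidney (5.24 ± 1.27), bladder (5.77 ± 1.27) and intestine (6.38 ± 1.19). Lung exceeded bladder (4.13 ± 1.27) and intestine (4.74 ± 1.19). Of all 16917 genes, 387, 861 and 1739 were called higher in heart than in kidney, bladder and intestine. In lung 862 and 1637 were called higher than in bladder and intestine. Cox6a2 overlaps Itgad on the other strand, and strand was not stated for the counting, but Itgad read 0 in every heart library and at most 5 elsewhere. The log2 ratio of Cox6a2 to its common partner Cox6a1 was -3.64 ± 1.39 (SD, n = 3) in heart and -7.16 ± 2.27 (SD, n = 19) elsewhere. This difference of 3.52 had p = 0.0156 in the exact permutation test and an adjusted p of 0.0623. Cox6a1 had 716 to 991 reads in the 18 deeper libraries, and the part of depth in this ratio was not tested. Without the aorta libraries it was 3.46 (adjusted p = 0.033, exact permutation), and without aorta replicate 3, the library with the highest Cox6a2, it was 3.76 (adjusted p = 0.0241). Leaving out lung replicate 2 or 3 or stomach replicate 2 or 3 also took it past the threshold (3.75, 3.65, 3.63 and 3.63). Over all fits with 1 library left out the difference ran from 2.83 to 4.22 and the adjusted p from 0.0241 to 0.368 (exact permutation), with the highest p without heart replicate 2.

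Cox8b, the striated muscle form of subunit 8, read 41, 74 and 16 in heart and 0 in all 3 kidney libraries. It read 8, 31 and 5 in lung, 12, 9 and 19 in stomach, 16, 6, 13 and 21 in intestine, 1, 1 and 0 in bladder and 0, 0 and 152 in aorta. Kidney and bladder lay below all libraries of heart, lung, stomach and intestine. It was called lower in kidney (-3.25 ± 0.99, adjusted p = 0.0427, limma), where 4.11% of all genes were called lower. The call was lost in 14 of 22 fits with 1 library left out, with adjusted p from 0.00104 to 0.175 over the 22. In heart its value was 2.86 ± 0.99 (SE, adjusted p = 0.0516, limma). The log2 ratio to Cox8a was -4.71 ± 2.42 (SD, n = 3) in heart and -6.60 ± 2.50 (SD, n = 19) elsewhere, which did not pass (exact permutation p = 0.245, adjusted p = 0.326).

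Cox7a1, the striated muscle form of subunit 7A, was highest in 2 tissues, stomach (115, 137 and 97) and heart (102, 130 and 65). It read 22, 52 and 19 in lung, 26, 35 and 20 in kidney, 29, 33, 41 and 27 in intestine, 5, 16 and 16 in bladder, and 9, 12 and 159 in aorta. Outside aorta 3, no library of another tissue reached the stomach or heart range. It was called higher in stomach (1.92 ± 0.62, adjusted p = 0.0343, limma), where 13.4% of all genes were called higher, and lower in bladder (-1.90 ± 0.62, adjusted p = 0.0451, limma), where 7.4% were called lower. Without stomach replicate 1, 2 or 3 the stomach call was lost (log2 fold changes 1.92, 1.80 and 2.04, adjusted p = 0.126, 0.164 and 0.103, limma). The bladder call was lost in 16 of 22 such fits, most of all without bladder replicate 1 (-1.40, adjusted p = 0.244, limma). The heart value was 1.60 ± 0.62 (adjusted p = 0.0788, limma). Cox7a1 made up 21.0% ± 2.47 (SD, n = 3) of Cox7a1 and Cox7a2 signal in stomach, 11.5% ± 7.33 (n = 3) in heart and 2.24% ± 0.769 (n = 3) in bladder. The log2 ratio to Cox7a2 was -3.21 ± 1.32 (SD, n = 3) in heart and -4.04 ± 1.53 (SD, n = 19) elsewhere and did not pass (exact permutation p = 0.386, adjusted p = 0.386).

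Markers of striated muscle were high along with these 3 genes in some libraries and not in others. The 12 cardiomyocyte markers summed to 3998, 6149 and 5898 in heart, with 12, 12 and 11 of them above 0. Their sums were 3376, 3661 and 3229 in lung, 1018 to 1394 in stomach, 1164 to 2650 in kidney, 650 to 962 in intestine and 178 to 817 in bladder. Single genes made up most of some sums, such as Myh6 in kidney 1 (2028 of 2650) and Actc1 in lung 1 (2544 of 3376). A higher sum is thus not a measure of more cardiomyocyte RNA. Single markers differed in where they were high. Myl2, of the ventricle, read 169, 263 and 421 in heart and at most 7 elsewhere. The myosin gene Myh6 read 2028, 310 and 1295 in kidney against 66, 321 and 186 in heart, and the cardiac actin gene Actc1 read 2544, 1836 and 2129 in lung against 418, 1229 and 979 in heart. In aorta the sums were 217, 721 and 6444, where aorta 3 also had skeletal muscle markers summing to 24059, against 489 and 990 in aorta 1 and 2. Acta1, skeletal muscle actin, read 9026 in aorta 3 and 226 and 122 in the others, and all 9 skeletal markers were above 0 there. Skeletal sums were 2257, 1820 and 1793 in stomach, where Cox7a1 was high, 90, 1575 and 272 in lung, where lung 2 had the highest Cox6a2 and Cox8b, and 48 to 465 in heart, kidney, bladder and intestine. In heart itself the skeletal sums were 304, 465 and 162. Brown fat cells also use Cox7a1 and Cox8b. The 7 brown fat markers summed to 1545, 3113 and 902 in aorta, 1159, 1020 and 1941 in heart, 404 to 633 in lung, 482 to 795 in kidney, 353 to 409 in stomach, 266 to 431 in intestine and 135 to 440 in bladder. Most of the sum in aorta and heart was Fabp4, with 1357, 2841 and 717 in aorta and 1104, 943 and 1941 in heart. Cidea read 188, 272 and 182 in aorta, 17, 31 and 0 in heart, 128, 271 and 217 in lung and 131, 243 and 76 in kidney. Ucp1, Adipoq and Plin1 were at 0 in every aorta and heart library, and Elovl3 and Ppara read at most 21 and 27 there. The part of other cells in these levels was not tested.

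Cox6b2, known from testis, differed less. It read 43 to 165 over the 22 libraries and did not pass across tissues (F = 2.04, adjusted p = 0.147, limma). Of its 21 pairs, 2 passed, aorta below bladder (-1.19 ± 0.42) and aorta below intestine (-0.98 ± 0.39). In these pairs 4324 and 6906 of all 16917 genes were called lower in aorta. Per kb of exon, taken from GENCODE M21, its mean signal was 147, against 1150 for its common partner Cox6b1. The other isoform genes had 495 (Cox4i2), 99.2 (Cox7a1), 53.7 (Cox8b) and 48.7 (Cox6a2) per kb. Their partners had 1532 (Cox4i1), 959 (Cox7a2), 1318 (Cox8a) and 1768 (Cox6a1). Each isoform gene was thus lower than its partner in mean signal per kb.

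Across the 7 tissues, over all libraries, 38 of 41 tested members differed (limma F test), beside 59.6% of all genes, and 34 of these 38 were common subunits. Against the other tissues, 31 common subunits were called higher in aorta and 1 (Atp5l) lower. Of all genes, 9.15% were called higher there and 42.8% lower. The largest of the higher values were in Cox6a1 (1.87 ± 0.31 log2, SE, adjusted p = 0.000127, limma), Cox4i1 (1.75 ± 0.30), Atp5b (1.74 ± 0.35) and Atp5j (1.64 ± 0.25). The median over the 36 common subunits was 1.14, while that of all genes was -1.04. In intestine 29 common subunits were called lower, with 0 higher, beside 9.97% of all genes lower and 15.5% higher. Atp5b (-1.06 ± 0.31), Cox6a1 (-1.04 ± 0.28), Cox4i1 (-1.01 ± 0.27) and Cox8a (-0.99 ± 0.31) led them, and the median was -0.72 against 0.34 over all genes. Smooth muscle markers moved the same way, with 6 of 7 called higher in aorta (median log2 fold change 1.65). In heart 3 were called higher and in intestine 5 lower (median -0.85). These markers were also higher in the shallow heart 3, with a sum of 77488 against 23116 and 22028 in heart 1 and 2. The part of depth in the marker values, and of smooth muscle content in these counts, was not tested. In heart 10 common subunits were called higher and 0 lower, beside 6.03% of all genes higher and 12.4% lower. Uqcrh, the hinge protein of complex III (0.86 ± 0.26), the Rieske protein Uqcrfs1 (0.80 ± 0.17), Cox5b (0.78 ± 0.26) and Atp5a1 (0.77 ± 0.27) led these. Over the fits with 1 library left out, the Atp5a1 and Cox5b calls in heart were lost in 18 and 13 of 22. Without heart replicate 3, the number of members called in heart was 2 instead of 12, and without heart replicate 2 it was 31. Without intestine replicate 1, 2 or 3 it was 14, 11 or 12 in intestine instead of 30.

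**Figure D2:**
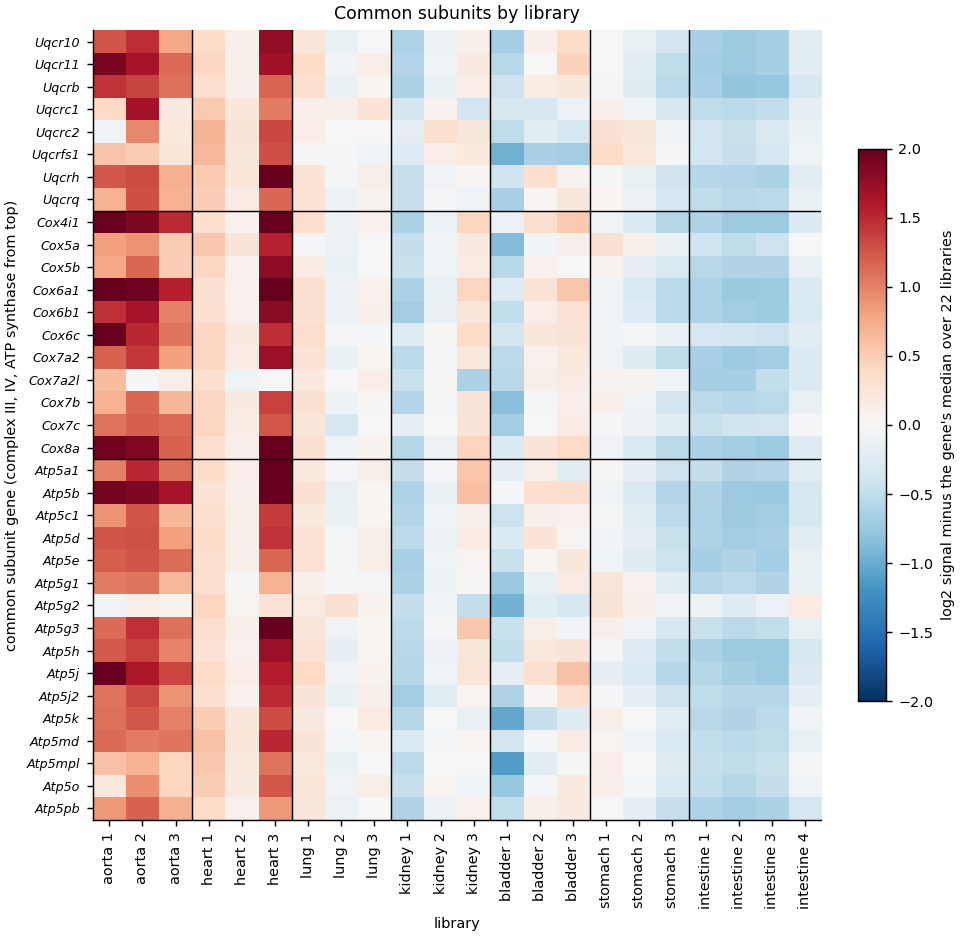
Log2 signal of 35 common subunits in each library, less the median of that gene over the 22 libraries, with colours ending at -2 and 2. Atp5l is left out because it is at 0 in 4 libraries. The 3 aorta libraries and heart 3 are high for nearly all genes, with heart 3 above heart 1 and heart 2 for 33 of 36 common subunits.

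Lung and kidney showed 0 common subunits called, beside 4.43% and 3.48% of all genes higher and lower in lung and 6.35% and 4.11% in kidney. At an unadjusted p under 0.05 the number was also 0 in both. In bladder Uqcrfs1 (-0.93 ± 0.17, adjusted p = 0.000792, limma) and the ATP synthase e subunit Atp5k (-0.77 ± 0.23, adjusted p = 0.0294, limma) were called lower, beside 7.4% of all genes, and 0 common subunits higher, beside 8.31%. The Atp5k call was lost without bladder replicate 1 (-0.55, adjusted p = 0.199, limma) or 2 (-0.83, adjusted p = 0.0732). In stomach 0 common subunits were called, and 5 had an unadjusted p under 0.05.

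The common subunits' differences moved with library depth. In the 18 deeper libraries depth spanned 2.9-fold, and Cox4i1, the common form of subunit 4, had between 854 and 1162 rebuilt reads. Cox6a1 had 716 to 991 reads, Atp5b (the catalytic beta subunit) 2379 to 3599 and Atp5j (coupling factor 6) 629 to 898. For 29 of 36 common subunits the span of reads was narrower than that of depth, with a median of 2.11-fold, whereas 4.63% of all tested genes had a narrower span and their median was 13.0-fold. Genes of the cytosolic ribosome, which are short and abundant, had a median span of 3.15-fold. Between aorta 1 and intestine 2, the least and most deeply read libraries, depth differed 20.2-fold and Cox4i1 reads 3.36-fold (335 against 1125).

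The same was seen within 1 tissue. Heart 3 held 8.64 times fewer reads than the mean of heart 1 and heart 2, and 33 of 36 common subunits had a higher signal in it than in both, beside 22.6% of all tested genes. Its signal was a median of 2.21 times the mean of heart 1 and heart 2 for the common subunits, against 0.667 times for all tested genes. Atp5b read 17344 in heart 3 and 3029 and 2661 in the others, while Cox4i2 read 1780 against 1097 and 911. Per kb of exon, Cox4i2 had up to 1588 rebuilt reads in the deeper libraries and Cox4i1 up to 1519. How the flat read numbers arose, and whether Cox4i2 in heart is limited in the same way, was not tested. The common partners are also the denominators of the isoform shares and ratios, and the part of their flat reads in these was not tested.

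**Figure D3:**
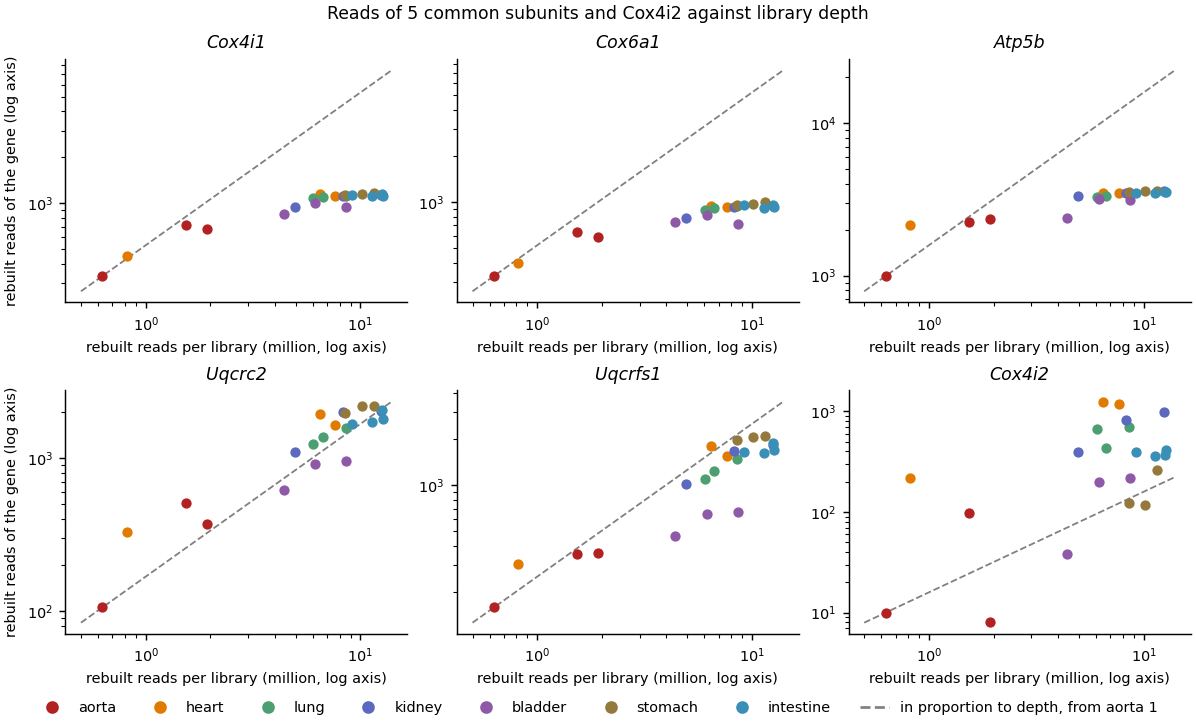
Rebuilt reads of 5 common subunits and Cox4i2 (log axis) against the depth of the library in rebuilt reads (log axis), 1 point per library. The dashed line is the number in proportion to depth starting from aorta 1. Cox4i1, Cox6a1 and Atp5b flatten in the deeper libraries (854 to 1162, 716 to 991 and 2379 to 3599 reads), while Cox4i2 spreads by tissue.

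Tissues were therefore also compared over the 10 libraries of like depth (6035686 to 9176661 reads), a choice made after seeing the data. They comprised 3 of lung, 2 each of heart and bladder and 1 each of kidney, stomach and intestine, and none of aorta. Single libraries were assumed to vary like the other groups. Of 41 members 4 differed across these tissues, Cox4i2 (adjusted p = 0.00402), Cox6a2 (0.0125), Cox8b (0.0352) and Uqcrfs1 (0.0362, limma), beside 19.8% of all genes. In heart 3 members were called, Cox4i2 (2.04 ± 0.28), Cox6a2 (4.56 ± 0.83) and Cox8b (3.26 ± 0.82), beside 8.78% of all genes in either direction. Cox6a2 was called higher in lung (2.59 ± 0.72), beside 13.7%, and Cox4i2 lower in stomach (-2.29 ± 0.37), beside 2.96%. In bladder Cox7a1 (-2.37 ± 0.63) and Uqcrfs1 (-0.97 ± 0.19) were lower, beside 11.8%. In kidney and intestine 0 members were called, beside 0.749% and 1.38%, with 3 and 0 at an unadjusted p under 0.05.

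Apart from Uqcrfs1, 0 of 36 common subunits were called at matched depth. Their log2 fold changes in heart ran from 0.18 to 0.86, with a median of 0.35 and a median SE of 0.24, so all 36 lay above 0 without passing. In intestine, which is 1 library here, they had a median of -0.23 with a median SE of 0.32, and in lung a median of 0.12 with 0.21. Atp5b in intestine was -0.35 at matched depth. Differences of these sizes could not be shown with 10 libraries, and values that did not pass are not shown to be alike.

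**Figure D4:**
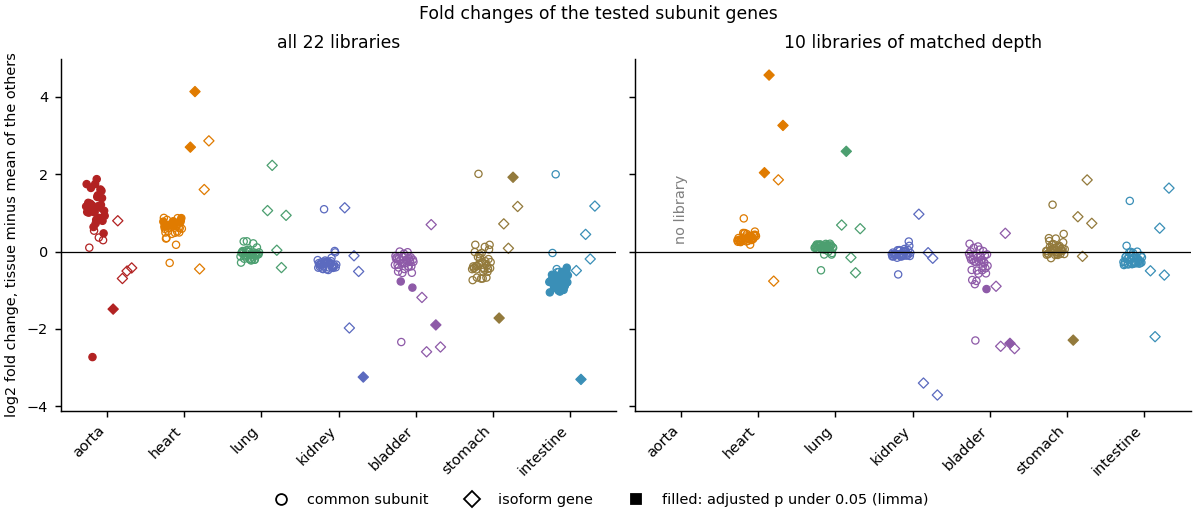
Log2 fold change of each tested member in each tissue against the mean of the others, over all 22 libraries and over the 10 of matched depth, with circles for common subunits and diamonds for isoform genes. Filled marks have an adjusted p under 0.05 (limma). The common subunits form a band above 0 in aorta and below 0 in intestine over all libraries (medians 1.14 and -0.72), and at matched depth intestine's median is -0.23.

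Uqcrfs1, the iron-sulfur protein that carries the electron from ubiquinol within complex III (chr13:30724291-30729345, mm39, minus strand), was the common subunit that differed at matched depth. Its signal was 521, 646 and 626 in bladder, 1032, 989 and 963 in lung and 841, 1107 and 1151 in kidney. It was 1323, 1169 and 982 in stomach, 771, 732, 792 and 956 in intestine, 1584, 1186 and 2475 in heart and 1498, 1439 and 1196 in aorta. All 3 bladder libraries lay below every other library. In rebuilt reads bladder 1 and 2 had 671 and 654 against 1103 to 1491 in lung, of like depth, and the shallower bladder 3 had 467. The bladder call held in all 22 fits with 1 library left out (-0.99 to -0.84) and in all 10 other settings. Its promoter entry held 23 CG pairs and none of the 5 motifs. Bladder's common subunits also had fewer reads in general, with a median of 417.5, 531 and 443.5 reads a gene against 645 to 689.5 in lung and 700 and 724 in heart 1 and 2. Urothelial markers summed to 242 to 4793 in bladder and to at most 246 elsewhere, and immune markers to 1230 to 2484 in bladder and 1237 to 1613 in lung. Their part was not tested.

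Within each complex the levels per kb of exon differed widely. In complex III, Uqcr10 (1394) and Uqcrh (1229) were highest and Uqcrq (306) and the core protein Uqcrc2 (630) lowest. In complex IV the highest were Cox6a1 (1768) and Cox4i1 (1532) and the lowest Cox7c (225) and Cox7a2l (273), which joins complexes III and IV into supercomplexes. In ATP synthase they were Atp5b (2048) and Atp5g3 (1561) and Atp5l (36.4) and Atp5g1 (71.9). With the shortest coding transcript in place of all exons, Uqcrq came to 1381 and Atp5g1 to 592 per kb, so these ranks rest on the length used. The flat reads also limit such levels. Atp5g1, Atp5g2 and Atp5g3 encode the same mature c subunit of the rotor ring, and their mean signals were 353, 59.1 and 1130. Atp5g3 was the highest of the 3 in every library (584 to 4263). Atp5g2 (31 to 81) and Cox7a2l (205 to 499) were, with Cox6b2, the tested members that did not differ across tissues (adjusted p = 0.565 and 0.114, limma).

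Atp5l, the g subunit that helps pair ATP synthases, stood apart at 0 to 50 in all libraries and at 0 in aorta 2, aorta 3, heart 3 and bladder 3. It was called lower in aorta (-2.73 ± 0.90, adjusted p = 0.0172, limma), beside 42.8% of all genes. That call was lost without aorta replicate 2 or 3 (-2.18 in both, adjusted p = 0.103 and 0.092, limma). The table also lists Atp5l-ps1, Atp5l-ps2 and Atp5l2-ps, at 0 to 10, and reads of near-identical copies may have been split or dropped, so its values are uncertain. In all 17 members overlap another gene of the table. The gene of the ATP synthase inhibitor is listed as Atpif1 and so fell outside the rule.

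Other genes of the pathway are given as whole lists. Of 8 tested electron carriers and related subunits, 5 were called higher in aorta (9.15% of all genes), 5 higher in heart (6.03%) and 7 lower in intestine (9.97%), and all 8 differed across tissues (59.6%). Ndufa4, a complex IV subunit, read 1639, 1666 and 1334 in aorta and 367, 335, 334 and 457 in intestine. At matched depth 1 of the 8, Ndufa4l2, differed (adjusted p = 0.0212, limma). The share of all genes that differed at matched depth was 19.8%. Of 24 complex IV assembly genes, 9 differed across tissues over all libraries, beside 59.6% of all genes. In aorta 5 were called higher and 4 lower, beside 9.15% and 42.8% of all genes. In stomach 4 were called higher and 1 lower, beside 13.4% and 6.93%, while 4 were called lower in intestine (9.97%) and 1 in bladder (7.4%). Higd1a, which tunes complex IV, had the largest F (12.1) and read 1017, 1471 and 1186 in aorta and 353 to 455 in intestine. Lrpprc, which steadies mitochondrial mRNAs, read 685, 924 and 640 in stomach and 242, 159 and 181 in lung. The copper carrier Cox17 read 593, 567 and 509 in aorta and 221, 200, 210 and 286 in intestine. At matched depth 0 of the 24 differed across tissues. Of 6 complex III assembly genes 2 differed (Uqcc2 and Lyrm7), and of 6 ATP synthase assembly genes 2 (Fmc1 and Atpaf2), beside 59.6% of all genes, and at matched depth 0 of either list, beside 19.8%.

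Of 11 regulators of mitochondrial biogenesis 5 differed across tissues, beside 59.6% of all genes. In aorta 7 of the 11 were called lower (median log2 fold change -1.57), beside 42.8% of all genes. At matched depth 3 differed, Ppargc1b (adjusted p = 0.0123), Esrra (0.0185) and Ppargc1a (0.0305, limma), beside 19.8%. These encode coactivators and the nuclear receptor they serve. Ppargc1a read 604, 454 and 527 in kidney, 236, 270 and 218 in stomach and 25, 4 and 28 in bladder. Nephron markers were high in kidney as well, with 8 of 8 called higher there (limma), beside 6.35% of all genes. Their part in the Ppargc1a level was not tested. Ppargc1b read 231, 425 and 1044 in heart, 405, 461 and 450 in stomach and 36, 35 and 24 in lung. Esrra read 487, 508 and 178 in heart, 508, 501 and 482 in stomach and 151, 113 and 78 in bladder. At matched depth bladder was lower for Ppargc1a (-3.50 ± 0.66) and Esrra (-1.48 ± 0.29), and lung was lower for Ppargc1b (-2.57 ± 0.42) and Esrra (-0.97 ± 0.25). Over all libraries Gabpa, whose protein binds ETS motifs, differed too (adjusted p = 0.00526, limma). It shares ends with Atp5j on the other strand, and its values may hold reads of that gene.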

How the data were processed

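RNA-seq of 22 libraries was read as deposited. Trimmomatic 0.39, STAR 2.7.10a, Picard 3.0.0, featureCounts 2.0.4 and DESeq2 1.36.0 are named, without their roles, in the submitters' processing notes, and so is the build mm39. Signal, in whole numbers scaled per library, is what the authors deposited, for all genes in 1 table. Strand and how duplicate reads were treated are not given in the sources used here.

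The worth of 1 read was found per library from the steps of the signal and divided out, and 99.8% or more of values (rounded) lay on whole multiples in the 6 libraries where a read is worth more than 1. Rebuilt reads were used to describe depth and in the edgeR and DESeq2 alternatives, and counting limits cover counting error only. Signal was tested with limma 3.58.1 (R 4.3.3) on log2(signal + 1), over genes reaching 10 in 3 or more libraries, with all 22 libraries in 1 fit, and checked on simulated data. Isoform ratios had exact permutation tests (scipy 1.17.1). The alternatives included pseudocount 10, no filter, other scaling, array weights, edgeR 4.0.16, DESeq2 1.42.0, left-out libraries and, chosen after seeing the data, matched depth. Exonic lengths came from GENCODE M21, by gene identifier.

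The members, the gene lists and the tests were chosen with earlier results of these data known. Named were every isoform gene and its partner, the 2 highest and 2 lowest common subunits per complex by signal per kb, up to 4 called common subunits per tissue and direction, the c ring genes and Cox7a2l, and up to 3 genes per list by F. Uqcrfs1 was described in full after its values were seen, as were Atp5l and the pathway genes that passed at matched depth.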

Additional observations from a re-analysis of the deposited data

Results flagged for a closer look

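Among the 4 intestine libraries, 18 of 42 members had a value far from the other 3 by Dixon's ratio at its 95% critical value, and in each case it was intestine 4. Chance flags about 1 in 20 groups, and these genes share 1 library and its scaling. The signal in intestine 4 was 425 for Uqcr10 (303 to 318 in the others), 298 for Uqcr11, 1319 for Uqcrc1, 463 for Uqcrh and 454 for Uqcrq. It was 344 for Cox5b, 432 for Cox7a2, 419 for Cox7b and 210 for Cox7c. It was 877 for Atp5d, 369 for Atp5e, 292 for Atp5g1, 245 for Atp5k, 154 for Atp5md, 335 for Atp5mpl, 301 for Atp5o and 825 for Atp5pb. For Cox6a2 it was 1 against 0 in the others, which is too few reads to read anything from. In intestine 4 1 read was worth 0.577, against 0.422 to 0.474 in the other 3, and the library held 9176661 reads against 11346630 to 12708396. The median common subunit had 742 rebuilt reads in intestine 4, within the 689.5 to 762.5 of the others. The part of depth in these values was not tested.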

How the results depend on the processing

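The number of members differing across tissues, 38, was 21 without aorta and heart 3, 4 at matched depth and 36 to 39 with 1 library left out. In aorta 33 members were called, 9 with array weights and 27 to 34 with 1 library left out. In heart 12 were called, 5 with no filter, 4 with median-of-ratios scaling, 5 with array weights, 22 with edgeR, 25 with DESeq2, 36 without the aorta libraries, 7 without aorta and heart 3, 3 at matched depth and 2 to 31 with 1 library left out. In lung 0 were called, 2 with array weights, 1 with edgeR, 1 with DESeq2, 1 without the aorta libraries, 2 without aorta and heart 3, 1 at matched depth and 0 to 1 with 1 left out. In kidney 1 was called, 0 with pseudocount 10 or no filter, 2 with array weights, 2 without the aorta libraries, 3 without aorta and heart 3, 0 at matched depth and 0 to 3 with 1 left out. In bladder 3 were called, 1 with no filter, 9 with DESeq2, 7 without the aorta libraries, 9 without aorta and heart 3, and 1 to 6 with 1 left out. In stomach 2 were called, 18 with array weights, of them 15 lower, 4 with DESeq2, 1 at matched depth and 0 to 6 with 1 left out. In intestine 30 were called, 13 without the aorta libraries, 0 at matched depth and 11 to 36 with 1 left out. Counts over all genes moved between settings as well. In heart 1020 genes were called higher and 2093 lower in the main fit. These were 869 and 2368 with median-of-ratios scaling, 1346 and 604 with edgeR, and 1467 and 1907 with DESeq2. At matched depth they were 570 and 755 of 15087 genes. The cause was not tested. Fits at matched depth or with libraries left out hold fewer libraries.

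With the replicate number as a block, 6 members were called in heart, 0 in kidney and 1 in stomach, and the Cox7a1 and Cox8b calls in bladder, stomach and kidney were lost. Whether the numbers pair libraries is not known. Deviations of same-numbered libraries from their tissue means correlated at a median of -0.01 (-0.10 to 0.26). Of 63 pairs 3 exceeded 0.1, and 3 of 22 libraries were closest to their own number. With 3 or 4 libraries a tissue, such deviations cannot show whether same-numbered libraries share an animal.

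The Cox6a2 ratio in heart was 3.46 (adjusted p = 0.033, exact permutation) without the aorta libraries and 3.57 (adjusted p = 0.039, exact permutation) with the median common complex IV subunit as denominator, both past the threshold. With 1 library left out the ratios ran from 0.99 to 1.45 for Cox4i2 in lung, 2.83 to 4.22 for Cox6a2, 0.30 to 1.57 for Cox7a1 and 0.94 to 3.25 for Cox8b in heart. Isoform pairs passed in 22 of 105 comparisons, and in 12 of 75 at matched depth. Of all 16917 genes, 564 were called higher and 471 lower in stomach minus intestine, the pair with the fewest calls. In aorta minus intestine, with the most, 1944 and 6906 were. At matched depth the range was from 13 and 10 (stomach minus intestine) to 1114 and 1446 (lung minus bladder) of 15087 genes. None of the named fold changes reversed in any setting. Median-of-ratios scaling moved the median of all genes in lung from 0.15 to 0.02, and edgeR moved that in aorta from -1.04 to -0.40.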
